A study of Mus musculus with 6 samples.

Results

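The guidance genes are the genes of the semaphorin, plexin, neuropilin, ephrin, Eph receptor, Slit, Robo, netrin and netrin receptor families. They were taken by symbol, as the genes whose names start with Sema, Plxn, Efna, Efnb, Epha, Ephb, Robo, Slit, Unc5 or Ntn, with *Nrp1*, *Nrp2*, *Dcc* and *Neo1* and without the Slitrk and Ntng genes. Of 66 such symbols, 63 had at least 10 counts over the 6 libraries and were kept, of 24224 genes in the table. The 63 genes comprised 18 semaphorins, 11 plexins and neuropilins, 8 ephrins, 8 Eph receptors, 6 Slit and Robo genes, 8 netrins and netrin receptors, and 4 genes that share only the letters of the symbol. The genes just above the minimum were *Slit1* with 10 counts, *Plxna4os2* with 14 and *Sema7a* with 32, and those below it were *Robo4* with 2, *Sema3d* with 4 and *Epha8* with 6.

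AT2 cells, the surfactant-making cells of the alveolus that also renew its epithelium, had been sorted as CD45- CD31- CD326+ MHCII+ cells from lungs of naturally aged WT mice of strain C57BL/6J (C57/6J in the labels) at 24 m and at 3 m. There were 6 libraries of bulk RNA, 3 per age, with no treatment other than age at either time. Each replicate was a pool of cells from several mice, so the spread between libraries is that between pools. The comparison asks which guidance transcripts differ between the AT2 cells of old and young lungs.

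Guidance proteins were first known from growing axons, which they attract or repel. Semaphorins act through plexins, often with a neuropilin as co-receptor, membrane-bound ephrins act through Eph receptor tyrosine kinases on the neighboring cell, Slits act through Robo receptors, and netrins act through Dcc, neogenin and the Unc5 receptors. The same families are used outside the nervous system in the branching of the lung, in vessel growth and in the adhesion and boundaries of epithelial cells.

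The libraries held 28827930 to 32394985 counts. The markers of AT2 cells summed to 187900 to 196200 CPM at 24 m and 177700 to 280700 CPM at 3 m, in CPM, the count relative to the TMM-scaled library total. Replicate 2 at 3 m stood apart from the other libraries. It lacked counts for 693 genes for which every other library had 20 or more, against 0 to 15 such genes per library elsewhere, and 4 of the 693 were guidance genes (*Sema3e*, *Sema4g*, *Sema6b* and *Slit3*). The 24 m libraries had no count for 5, 5 and 1 of the 63 guidance genes, and the 3 m libraries for 9, 15 and 4. Values without replicate 2 at 3 m are therefore given below for the genes and families whose difference it moved most. In bulk RNA, fewer cells of a type and less RNA per cell cannot be told apart.

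The 7 guidance genes with the highest levels per length were receptors and membrane-bound ligands. On the deposited FPKM scale, which divides counts by gene length and library total, *Plxnb2* was first at 65.5 FPKM over the 6 libraries, followed by *Nrp1* at 34.3, *Epha2* at 29.2, *Sema4f* at 28.3, *Efna1* at 27.3, *Plxnb1* at 26.1 and *Sema4a* at 24.1 FPKM. The ranges of the neighbors in this order overlapped in 10 of the 10 pairs from the top, so the order between neighbors was within the spread of the libraries. In all, 11 of the 63 genes averaged 10 FPKM or more. Among these 11 were *Unc50*, taken in by symbol only, at 21.0 FPKM and the secreted *Sema3b* at 15.8 FPKM. Of the rest, 24 averaged between 1 and 10, 16 between 0.1 and 1, and 12 less than 0.1 FPKM. The Slit and Robo genes together came to 1.14 ± 0.139 FPKM at 24 m and 1.37 ± 0.286 FPKM at 3 m (mean ± SD of the 3 libraries of an age). The plexins and neuropilins together came to 170.2 ± 12.1 FPKM at 24 m and 129.9 ± 39.3 FPKM at 3 m. Secreted Slits and their receptors thus had the lowest summed level of the families, and the semaphorin receptors the highest.

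**Figure D1:**
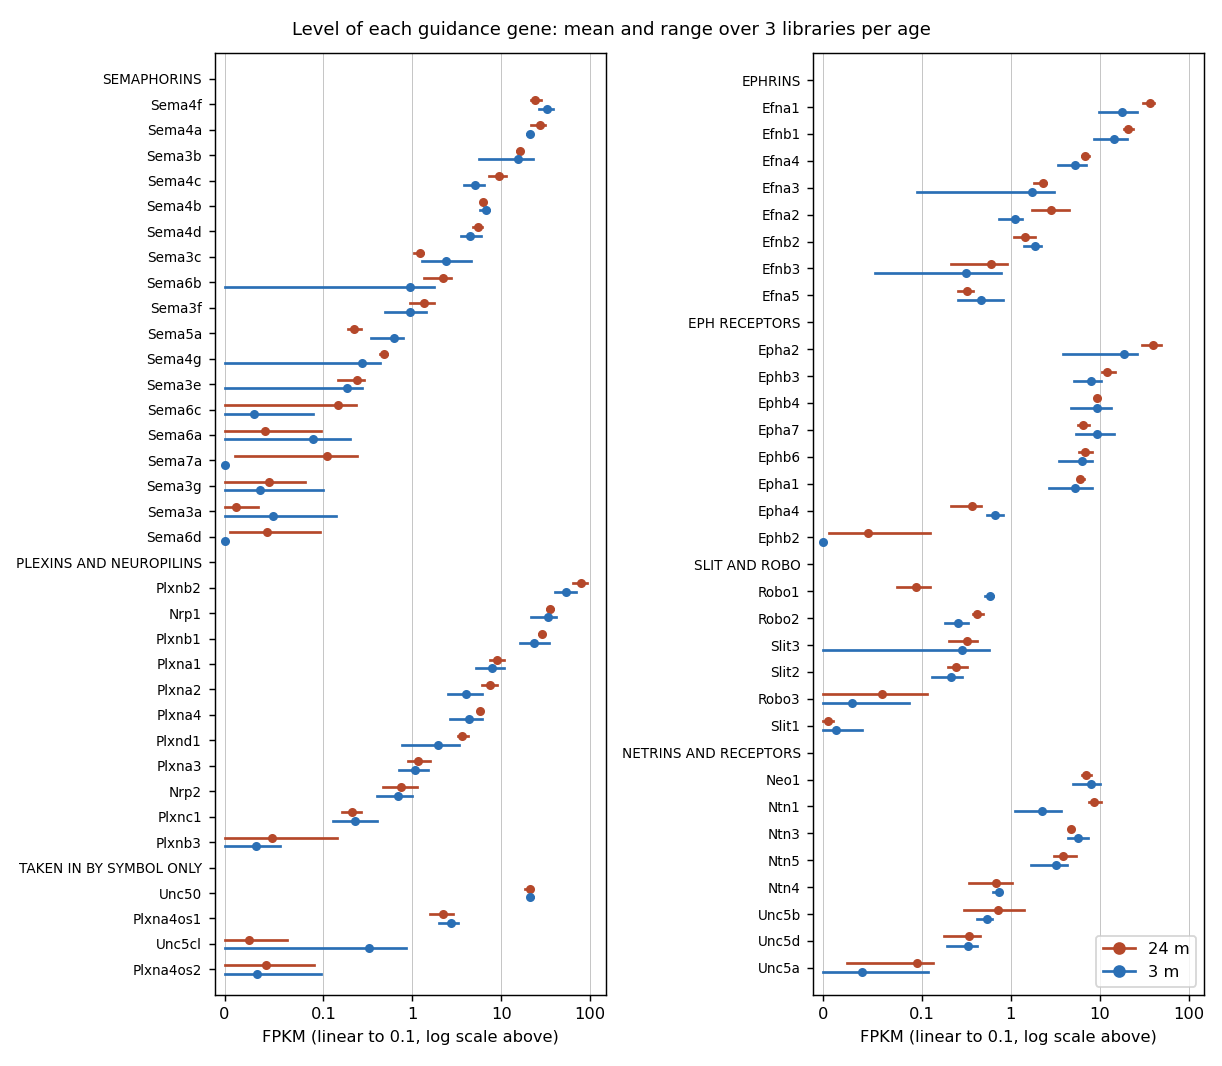
Level of each of the 63 guidance genes in FPKM (x axis, linear to 0.1 and logarithmic above), by family (y axis), at 24 m (red, upper of each pair) and 3 m (blue, lower). Points are means and lines are ranges over the 3 libraries of each age, and 11 genes average 10 FPKM or more over all 6 libraries, led by *Plxnb2* at 65.5 FPKM.

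Between the ages, *Robo1* was lower in every 24 m library and *Ntn1* was higher in every 24 m library, and the call on both depended on the tool. Of the 63 guidance genes, 54 passed the filter on low counts, and the other 9, with 10 to 103 counts each, were not tested by edgeR. With a call defined as more than 1 log2 unit of difference and p, adjusted over all genes, under 0.05, edgeR called 0 of the 54, against 0% of all 14899 genes tested. At an unadjusted p under 0.05, 6 of the 54 passed in edgeR (11.1%), against 5.86% of all genes tested. Of the 6, 4 were higher at 24 m, against 3.56% of all genes, and 2 lower, against 2.3%. DESeq2 had 10 of the 63 guidance genes at that level, against 7.4% of the 24084 genes to which it gave a p. In limma-voom it was 8 of the 54, against 6.53%, with 0 called. Among the 10 in DESeq2 were *Ephb2*, *Sema6d* and *Sema7a*, which had no count at 3 m. They met the minimum of 10 counts through the 24 m libraries alone. DESeq2 called *Ntn1* higher and *Robo1* lower among the 61 guidance genes to which it gave an adjusted p, against 1.59% of all genes called higher, 0.156% called lower and 1.75% in either direction. The same 2 genes, and no other of the 63, were called by edgeR with no filter on low counts (0.855% of all genes), by edgeR without replicate 2 at 3 m (0.524%) and by DESeq2 without that library (2.59%).

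The ages did not overlap for 13 of the 54 tested genes (24.1%), against 15.1% of all genes tested. Of the 13, 9 were higher at 24 m, against 9.74% of all genes, and 4 lower, against 5.41%. The fitted difference was above 0 for 34 and below 0 for 20 of the 54, with a median log2 fold change of 0.17 against 0.05 over all genes, and library totals in place of TMM gave 37 and 17. The split was 31 and 23 without replicate 2 at 3 m. These counts describe the 54 genes that passed the filter on low counts and lend no support to a change of the list.

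**Figure D2:**
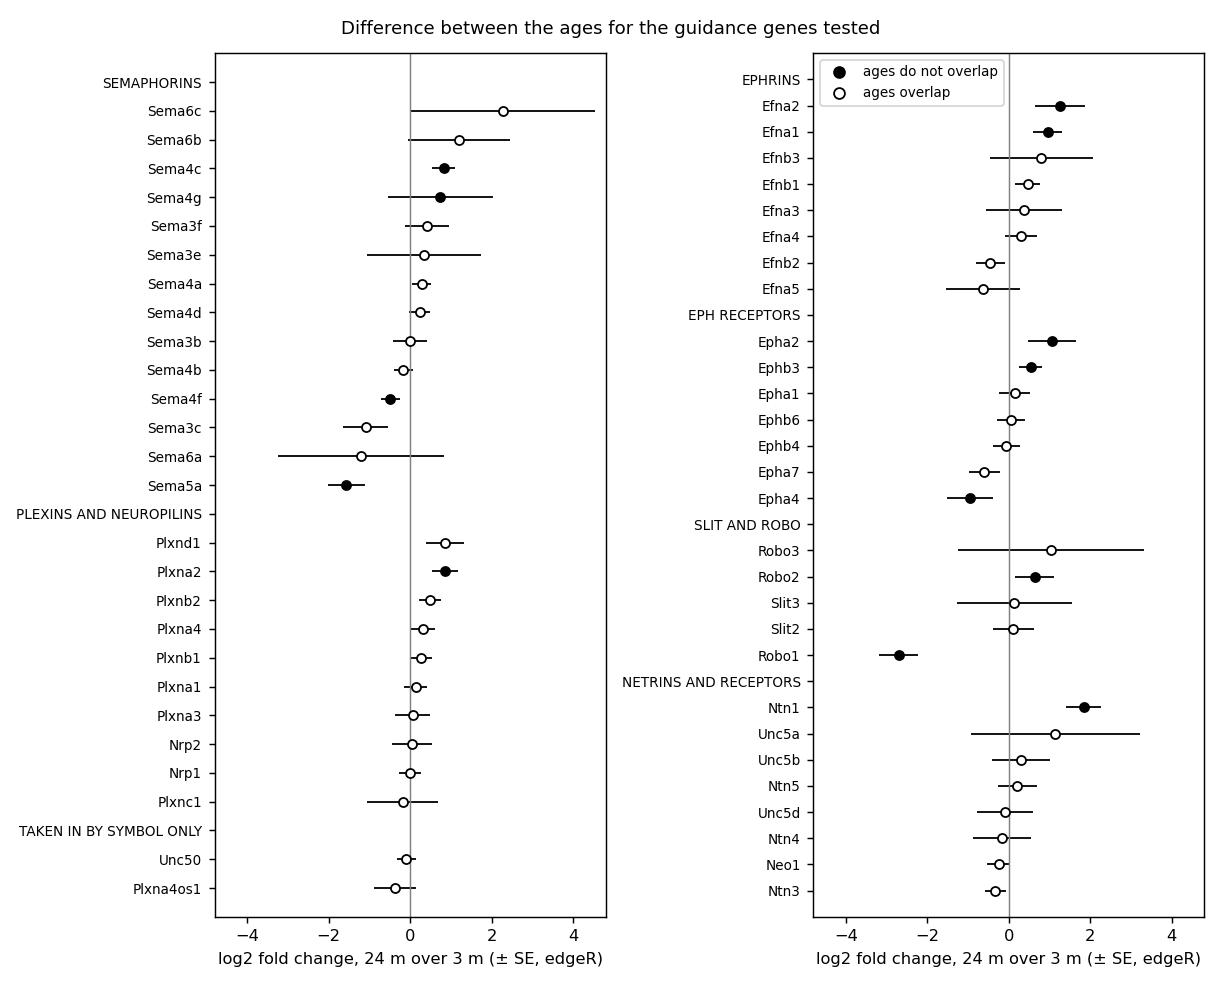
Log2 fold change of 24 m over 3 m from edgeR (x axis, with its standard error) for the 54 guidance genes tested, by family (y axis). Filled points are the 13 genes whose ages do not overlap, with *Robo1* at -2.71 farthest to the left and *Ntn1* at 1.84 the filled point farthest to the right.

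The Robo1 receptor binds secreted Slit proteins and carries their repulsive signal. *Robo1* had 1.96, 1.37 and 1.19 CPM in the 24 m libraries, against 8.98, 11.15 and 9.43 CPM in the 3 m libraries. Each 24 m library was far below each 3 m library, and replicate 2 did not stand apart from the other 3 m libraries for this gene. The difference was a log2 fold change of -2.71 ± 0.48 (SE), or 6.52-fold lower at 24 m, with an adjusted p of 0.220 in edgeR and 2.11e-06 in DESeq2. Without replicate 2 at 3 m it was -2.61, with an adjusted p of 0.0263 in edgeR. *Robo1* is one of the genes that the study labels in its own plot of these libraries, so its direction is not independent evidence.

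*Robo2*, which encodes a second receptor of the Slits, ran the other way by its values. It had 6.55, 8.15 and 6.10 CPM at 24 m, against 4.44, 6.09 and 2.91 CPM at 3 m. The lowest 24 m library and replicate 2 at 3 m were nearly equal, and the log2 fold change was 0.63 ± 0.48 (SE), with an adjusted p of 0.852 in edgeR. Per length, *Robo1* was at 0.122, 0.0848 and 0.0748 FPKM and *Robo2* at 0.396, 0.489 and 0.373 FPKM in the same 24 m libraries. At 3 m, *Robo1* was at 0.513, 0.624 and 0.600 FPKM and *Robo2* at 0.246, 0.331 and 0.180 FPKM. In every 24 m library *Robo2* was thus the more abundant of the pair, and in every 3 m library *Robo1* was. The change in this order was not tested, and both levels were under 1 FPKM.

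The third Robo gene, *Robo3*, had 0.439, 0 and 0.744 CPM at 24 m, against 0, 0 and 0.570 CPM at 3 m. These were too few counts to show a difference. Of the ligands, *Slit2* had 4.90, 7.98 and 5.24 CPM at 24 m, against 3.48, 7.73 and 5.54 CPM at 3 m, and the ages overlapped (log2 fold change 0.11 ± 0.50). *Slit3* had 1.18, 2.05 and 2.41 CPM at 24 m, against 1.86, 0 and 3.26 CPM at 3 m. Its log2 fold change was 0.14 with all libraries and -0.44 without replicate 2 at 3 m, so that its sign was set by the library with no count. *Slit1* had 10 counts in all and was not tested.

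Netrins are secreted laminin-related proteins, and *Ntn1* encodes netrin-1, the founding member. *Ntn1* had 46.4, 49.0 and 62.9 CPM at 24 m, against 7.43, 24.6 and 12.2 CPM at 3 m. The lowest 24 m library was well above the highest 3 m library, which was replicate 2. The log2 fold change was 1.84 ± 0.43 (SE), or 3.57-fold higher at 24 m, with an adjusted p of 0.410 in edgeR and 0.0130 in DESeq2. Without replicate 2 at 3 m it was 2.43, or 5.37-fold higher, with an adjusted p of 0.00558 in edgeR.

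The ages overlapped for the other netrins and for the receptors of netrins. *Ntn3* had 24.1, 24.5 and 22.2 CPM at 24 m, against 29.8, 24.2 and 35.4 CPM at 3 m. Its exons share 1.74% of their bases on the same strand with those of *Tbc1d24*, so a part of its counts may belong to that gene. The exons of *Ntn5* share 23.4% of their bases with *Sec1* on the opposite strand. The other guidance genes with 10% or more shared were *Efna3* at 14.1%, *Plxna1* at 10.7% and *Efna4* at 10.5%, also on the opposite strand. *Neo1*, which encodes the receptor neogenin, had 55.8, 53.4 and 67.0 CPM at 24 m, against 46.4, 80.1 and 83.6 CPM at 3 m. The log2 fold changes were -0.34 ± 0.26 for *Ntn3* and -0.25 ± 0.28 for *Neo1* (SE). *Ntn4*, *Ntn5*, *Unc5a*, *Unc5b* and *Unc5d* had log2 fold changes between -0.17 and 1.14. *Unc5b* was at 1.82, 8.58 and 2.65 CPM at 24 m, highest in replicate 2, against 3.96, 4.17 and 2.50 CPM at 3 m. Within the netrin family and its receptors, *Ntn1* was thus the one gene with ages that did not overlap.

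**Figure D3:**
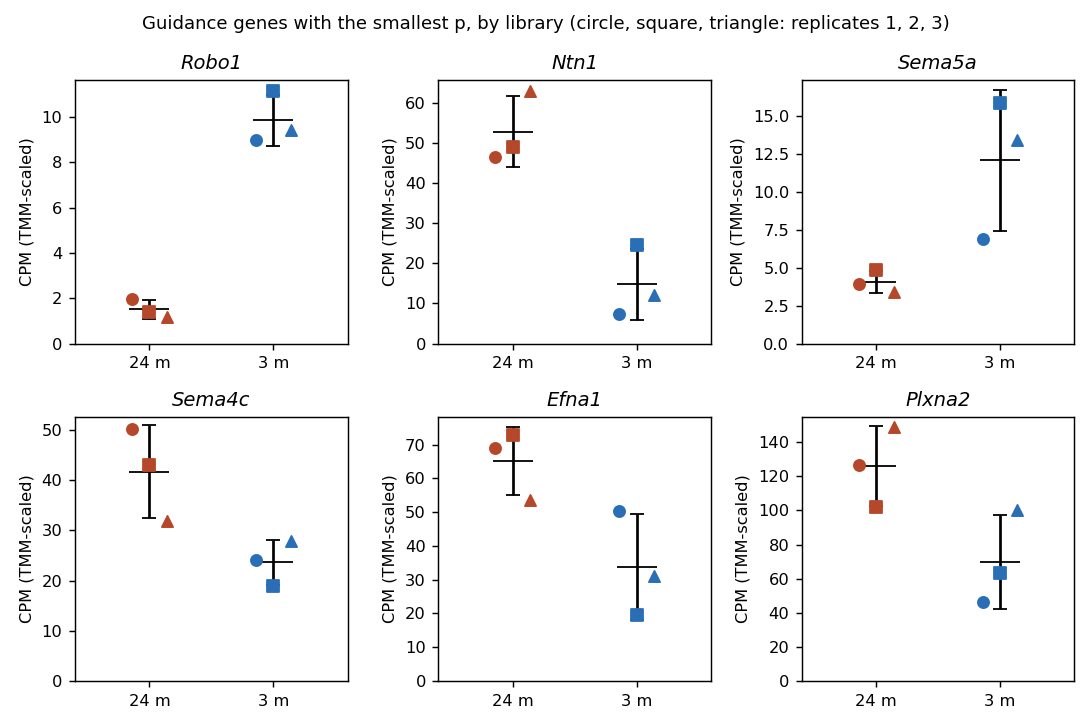
CPM (y axis, TMM-scaled, from 0) in each library at 24 m (red, left) and 3 m (blue, right) for the 6 guidance genes with an unadjusted edgeR p under 0.05. Symbols mark replicates 1, 2 and 3, bars the mean ± SD of 3 libraries, and every 24 m library of *Robo1* lies at or under 1.96 CPM while every 3 m library lies at or above 8.98 CPM.

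Of the semaphorins, *Sema4f* and *Sema4a*, which encode transmembrane class 4 proteins, had the highest levels per length. *Sema4f* had 118.2, 112.1 and 142.9 CPM at 24 m, against 147.5, 187.5 and 191.0 CPM at 3 m. The ages stood close to each other without overlap, and the log2 fold change of -0.50 ± 0.23 (SE) had an adjusted p of 0.828 in edgeR. *Sema4a* had 162.2, 154.9 and 111.4 CPM at 24 m, against 124.5, 113.6 and 113.7 CPM at 3 m, with overlap. *Sema3b*, a secreted semaphorin, had 77.0, 70.1 and 77.7 CPM at 24 m, against 91.0, 29.4 and 104.5 CPM at 3 m. Its replicate 2 at 3 m was far below the other 5 libraries, so that the log2 fold change, close to 0 with all libraries, was -0.38 without that library.

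The semaphorins with the smallest p lay in opposite directions. *Sema5a*, a transmembrane semaphorin with thrombospondin repeats, had 3.95, 4.83 and 3.39 CPM at 24 m, against 6.88, 15.9 and 13.4 CPM at 3 m. Its log2 fold change was -1.57 ± 0.45 (SE), or 2.97-fold lower at 24 m, with an adjusted p of 0.621 in edgeR and 0.0574 in DESeq2. *Sema4c*, a ligand of *Plxnb2*, had 50.3, 42.9 and 31.9 CPM at 24 m, against 24.0, 19.0 and 27.9 CPM at 3 m. Its log2 fold change was 0.82 ± 0.28 (SE), with an adjusted p of 0.806 in edgeR, and its exons share 7.27% of their bases with those of a gene on the opposite strand, *D430040D24Rik*. Neither gene passed the threshold in edgeR, DESeq2 or limma-voom, although the ages did not overlap for either.

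Of the 14 semaphorins tested, 8 had a fitted difference above 0 and 6 below, and 0 were called by edgeR or DESeq2. With library totals as the scaling, the split was 9 and 5, and without replicate 2 at 3 m it was 7 and 7. *Sema4g* also had ages that did not overlap, at 4.36, 3.65 and 4.02 CPM at 24 m, against 3.58, 0 and 3.61 CPM at 3 m, where the counted 3 m libraries lay just under the 24 m ones. Its log2 fold change was 0.74 with all libraries and 0.16 without replicate 2 at 3 m. *Sema3c*, a secreted semaphorin, had 8.71, 9.35 and 7.23 CPM at 24 m, against 9.77, 35.0 and 9.05 CPM at 3 m. The log2 fold change of *Sema3c* was -1.09 with all libraries and -0.16 without replicate 2 at 3 m, so the size of this difference came from 1 library.

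*Sema6d* and *Sema7a* had no count in any 3 m library, as had the receptor gene *Ephb2*. These 3 genes were named after their values were seen, and the filter on low counts kept them out of the edgeR test. With no count at 3 m, they met the minimum of 10 counts through the 24 m libraries alone. DESeq2 gave adjusted p of 0.372 for *Sema6d*, 0.495 for *Sema7a* and 0.286 for *Ephb2*, and called none. Of the 14899 genes tested by edgeR, 97 had no count in any 3 m library and 1 had none in any 24 m library. *Sema6d*, *Sema7a* and *Ephb2* are outside that set. The share over all genes with at least 10 counts was not counted, so the 3 genes have no like background here. *Sema6d* was at 0.270, 1.01 and 0.0595 CPM at 24 m, *Sema7a* at 0.777, 0.0335 and 0.238 CPM and *Ephb2* at 0.0675, 1.51 and 0.119 CPM. Set against 3 counts summed over the 3 m age (0.0338 CPM) as a floor, the means at 24 m were at least 13.2-fold, 10.3-fold and 16.7-fold higher. In each gene 1 library held most of the 24 m counts, replicate 2 for *Sema6d* and *Ephb2* and replicate 1 for *Sema7a*.

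Plexins are the large receptors of semaphorins, and neuropilins are co-receptors with short cytoplasmic tails. *Plxnb2* had 578.4, 702.5 and 477.7 CPM at 24 m, against 401.6, 334.3 and 516.5 CPM at 3 m. *Plxnb1* had 246.0, 286.7 and 278.0 CPM at 24 m, against 191.5, 170.8 and 312.5 CPM at 3 m. *Nrp1*, which also binds VEGF, had 313.5, 333.9 and 356.4 CPM at 24 m, against 227.2, 389.3 and 387.6 CPM at 3 m. The ages overlapped for all 3, and the 3 m libraries were the more spread for *Plxnb1* and *Nrp1*.

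*Plxna2* was the plexin whose ages did not overlap. It had 126.6, 102.0 and 149.0 CPM at 24 m, against 46.0, 63.5 and 99.97 CPM at 3 m, so that the lowest 24 m and the highest 3 m library nearly met. Its log2 fold change was 0.85 ± 0.33 (SE), with an adjusted p of 0.828 in edgeR. Of the 10 plexins and neuropilins tested, 8 had a fitted difference above 0 and 2 below, and 9 and 1 with library totals as the scaling, where *Nrp1* changed sign. The split was also 9 and 1 without replicate 2 at 3 m, where *Plxnc1*, *Nrp1* and *Plxna3* changed sign. *Plxnc1* was then at 0.63, against -0.19 with all libraries, and *Nrp1* at 0.12, against -0.0004. *Plxna3* was then the gene below 0, at -0.14, against 0.06 with all libraries. The count called was 0 by edgeR and 0 by DESeq2.

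Ephrins of class A are anchored to the membrane by a lipid, and those of class B cross it. *Efna1*, which encodes a ligand of EphA2, had 69.1, 72.8 and 53.7 CPM at 24 m, against 50.5, 19.4 and 31.2 CPM at 3 m. The log2 fold change was 0.95 ± 0.36 (SE), with an adjusted p of 0.828 in edgeR and 0.337 in DESeq2, and it was 0.68 without replicate 2 at 3 m. *Efnb1* had 80.1, 67.2 and 62.4 CPM at 24 m, against 53.2, 32.2 and 66.9 CPM at 3 m, with overlap. *Efna4* had 11.8, 9.86 and 10.1 CPM at 24 m, against 11.9, 5.91 and 7.94 CPM at 3 m, again with overlap, and 10.5% of its exon bases are shared with a gene on the opposite strand. *Efna2* had 9.39, 3.59 and 4.64 CPM at 24 m, against 2.99, 1.71 and 2.63 CPM at 3 m, with no overlap and a log2 fold change of 1.26 ± 0.61 (SE). For all of *Efna1*, *Efna2*, *Efnb1* and *Efna4*, replicate 2 was the lowest 3 m library.

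Summed over the 8 ephrins, the level was 80.1, 72.5 and 62.5 FPKM at 24 m, against 52.6, 26.3 and 50.4 FPKM at 3 m. In this sum the lowest 24 m library exceeded the highest 3 m library, also with replicate 2 at 3 m left aside. The sums of the other families overlapped between the ages. FPKM sums carry no TMM scaling, and none of them was tested. *Efna1* made up the largest part of the sum, at 36.6 ± 5.39 FPKM at 24 m and 17.9 ± 8.09 FPKM at 3 m (mean ± SD of the 3 libraries of an age). Fitted differences were above 0 for 6 of the 8 ephrins and below 0 for 2 (*Efnb2* and *Efna5*) under each of the 3 scalings, and none of the 8 was called by edgeR or DESeq2. Leaving out replicate 2 at 3 m again gave 6 and 2, with *Efnb2* and *Efna3* below 0, and *Efnb3* was at 2.76, against 0.80 with all libraries.

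Eph receptors are tyrosine kinases, grouped by the class of ephrin they bind. *Epha2* had 220.3, 189.2 and 133.9 CPM at 24 m, against 126.1, 19.6 and 117.0 CPM at 3 m. The ages did not overlap, although the lowest 24 m library was close to the highest 3 m library, and replicate 2 at 3 m was far below all others. The log2 fold change was 1.05 ± 0.59 (SE), with an adjusted p of 0.828 in edgeR, and it was 0.58 without that library.

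*Ephb3* had 69.6, 68.5 and 95.4 CPM at 24 m, against 59.5, 36.7 and 65.2 CPM at 3 m, with no overlap and a log2 fold change of 0.53 ± 0.29 (SE). *Ephb4* had 42.0, 44.7 and 39.2 CPM at 24 m, against 48.9, 24.0 and 58.5 CPM at 3 m, with overlap. *Epha4*, a receptor that binds ephrins of both classes, had 3.21, 3.65 and 1.64 CPM at 24 m, against 5.51, 4.67 and 6.20 CPM at 3 m. It was lower in every 24 m library, with a log2 fold change of -0.95 ± 0.57 (SE). *Epha7* had 61.0, 54.8 and 71.5 CPM at 24 m, against 57.2, 156.2 and 70.4 CPM at 3 m, and its log2 fold change was -0.60 with all libraries and -0.03 without replicate 2 at 3 m. Of the 7 Eph receptors tested, 4 were fitted above 0 and 3 below, and 0 were called by edgeR or DESeq2. Without replicate 2 at 3 m, 2 were above 0 and 5 below, since *Epha1* was at -0.16, against 0.14 with all libraries, and *Ephb6* at -0.22, against 0.05.

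The 4 genes taken in by symbol only do not encode guidance proteins. *Unc50*, a gene of the Golgi and endoplasmic reticulum membrane, was the most abundant of them at 28.7, 34.1 and 33.7 CPM at 24 m, against 38.4, 33.9 and 30.6 CPM at 3 m. *Plxna4os1* and *Plxna4os2* are antisense RNA genes at *Plxna4*. *Unc5cl* was at 0, 0.201 and 0.0298 CPM at 24 m, against 0, 2.99 and 0.380 CPM at 3 m, nearly all of it in replicate 2. No member of this group had ages that did not overlap.

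**Figure D4:**
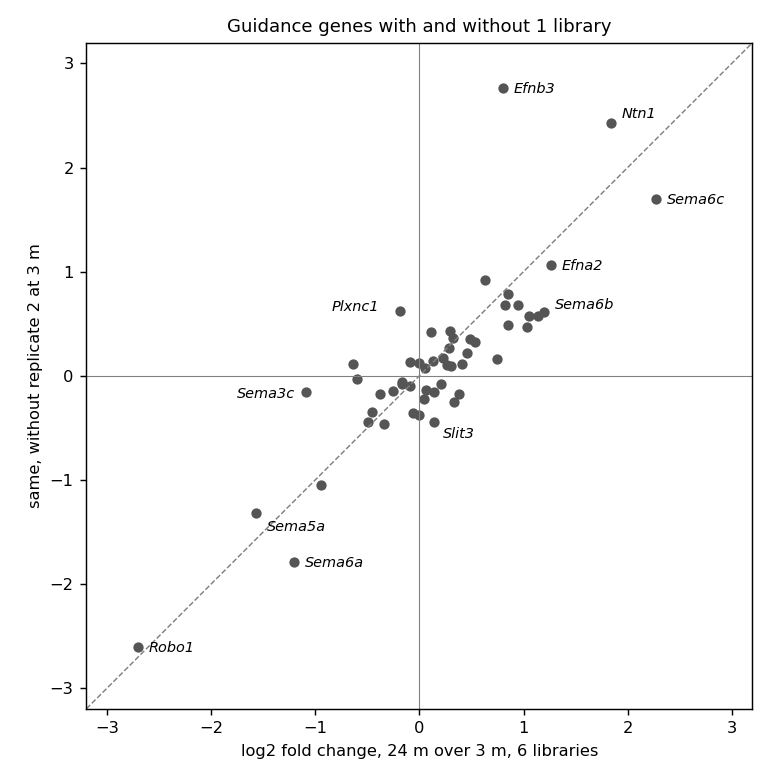
Log2 fold change of 24 m over 3 m (edgeR) with all 6 libraries (x axis) and without replicate 2 at 3 m (y axis) for the 54 guidance genes in both fits. Points on the dashed line do not move, the sign was the same for 43 of 54, *Robo1* lay at -2.61 without that library and *Sema3c* moved to -0.16, against -1.09 with all libraries.

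Replicate 2 at 3 m decided the size of several differences. It was more than 2 times the highest of the other 5 libraries for 5 guidance genes (*Efna5*, *Epha7*, *Sema3a*, *Sema3c* and *Unc5cl*) and under 0.5 times the lowest for 8 (*Efna3*, *Epha2*, *Plxnd1*, *Sema3b*, *Sema3e*, *Sema4g*, *Sema6b* and *Slit3*). Without it, 12 of the 56 guidance genes then tested had an unadjusted p under 0.05 in edgeR, against 10.4% of all 16216 genes. All 6 of the genes with all libraries were among the 12, and the others were *Efnb3*, *Epha2*, *Ntn3*, *Robo2*, *Sema3b* and *Sema4f*. Among the 12, 7 were higher and 5 lower at 24 m. *Sema3e*, *Sema4g*, *Sema6b* and *Slit3*, which had no count in that library, were not among them.

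Promoter sequences are shown for *Robo1*, *Sema5a* and *Plxna2*, the genes with an unadjusted p under 0.05 and ages apart that have 1 listed start. They are RefSeq windows on GRCm38.p6, from 250 bases before to 50 bases after the start, 5′ to 3′ on the gene's strand, and capitals mark GGGCGG on either strand, the core letters of a GC box. The windows are chr16:72662899-72663198 (+) for *Robo1*, chr15:32244563-32244862 (+) for *Sema5a* and chr1:194619579-194619878 (+) for *Plxna2*.
Robo1: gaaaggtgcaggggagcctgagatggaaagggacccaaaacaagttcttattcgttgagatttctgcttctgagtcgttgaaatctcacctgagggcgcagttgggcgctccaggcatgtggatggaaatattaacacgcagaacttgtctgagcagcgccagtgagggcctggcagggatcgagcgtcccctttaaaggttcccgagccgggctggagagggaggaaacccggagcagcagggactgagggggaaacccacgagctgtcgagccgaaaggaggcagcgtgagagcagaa
Sema5a: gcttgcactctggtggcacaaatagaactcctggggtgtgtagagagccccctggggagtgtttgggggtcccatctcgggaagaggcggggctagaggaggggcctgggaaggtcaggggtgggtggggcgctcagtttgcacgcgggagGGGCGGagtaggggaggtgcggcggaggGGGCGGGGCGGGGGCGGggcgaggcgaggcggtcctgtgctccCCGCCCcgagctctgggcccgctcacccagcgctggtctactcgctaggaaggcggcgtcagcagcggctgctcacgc
Plxna2: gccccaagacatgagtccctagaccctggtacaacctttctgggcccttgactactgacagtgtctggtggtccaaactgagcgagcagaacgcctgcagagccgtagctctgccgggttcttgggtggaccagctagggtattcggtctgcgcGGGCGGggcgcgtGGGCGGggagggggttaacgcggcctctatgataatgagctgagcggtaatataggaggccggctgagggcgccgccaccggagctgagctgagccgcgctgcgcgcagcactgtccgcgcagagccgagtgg

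The 2 genes that were lower at 24 m differed in these letters. The *Robo1* window held 0 matches to GGGCGG, with 15 CpG and 57.0% G and C. The *Sema5a* window held 5 matches, some of which overlap each other, with 23 CpG and 71.3% G and C. The *Plxna2* window held 2 matches, with 25 CpG and 64.7% G and C, and the median over all 32841 windows was 7 CpG and 52.7% G and C. All 3 windows were thus richer in CpG than the median. Of the 63 guidance genes, 52 matched the table by symbol, with 68 windows.

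Searched on both strands, GGGCGG was found in 76.5% of the windows of the guidance genes, against 35.7% of all windows. TATAAA, the letters of a TATA box, was found in 2.94% of the windows of the guidance genes, against 13.6% of all windows. TGANTCA, the letters bound by AP-1, was found in 4.41% of the windows of the guidance genes, against 7.81% of all windows. Neither TATAAA nor TGANTCA was found in the 3 windows shown. These are matches of letters, and no binding was measured. The windows of the guidance genes came from genes that met the count minimum, and some genes had several windows. The set of all windows was not matched to them for expression or for G and C content. Whether these differences in percent are particular to the guidance genes was therefore not tested.

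Other genes of the same pathways were read from a list of 59 ligands, co-receptors, cytoplasmic effectors and proteases, of which 55 had values and 49 were tested. Of the 49, 0 were called by edgeR or DESeq2, 3 had an unadjusted p under 0.05 in edgeR (6.12%, against 5.86% of all genes), and 14 had ages that did not overlap (28.6%, against 15.1%). *Vegfa*, a ligand of *Nrp1*, had 255.8, 254.5 and 226.0 CPM at 24 m, against 164.6, 93.8 and 145.8 CPM at 3 m. It was higher in every 24 m library, with a log2 fold change of 0.87 ± 0.27 (SE) and an adjusted p of 0.683 in edgeR. *Rgmb*, a ligand of neogenin, had 40.6, 53.2 and 48.0 CPM at 24 m, against 67.0, 114.9 and 53.8 CPM at 3 m, with a log2 fold change of -0.73 ± 0.32 (SE) and an adjusted p of 0.828 in edgeR, and it was -0.35 without replicate 2 at 3 m.

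Among the effectors, *Rnd3* had 8.71, 5.10 and 2.71 CPM at 24 m, against 2.10, 0.641 and 1.42 CPM at 3 m. *Farp2*, which encodes an exchange factor in plexin signaling, had 11.9, 11.5 and 10.5 CPM at 24 m, against 2.17, 4.92 and 8.99 CPM at 3 m. *Srgap3*, which encodes a GTPase-activating protein of the Slit and Robo pathway, had 0.0338, 0.704 and 0.773 CPM at 24 m, against 2.00, 7.84 and 1.20 CPM at 3 m. The ages did not overlap for these 3 genes, and the log2 fold changes were 1.98 ± 0.75 for *Rnd3*, 1.07 ± 0.53 for *Farp2* and -2.86 ± 1.25 for *Srgap3* (SE), each with an adjusted p of 0.828 in edgeR. Without replicate 2 at 3 m, which held most of its 3 m counts, *Srgap3* was at -1.65 ± 1.27 (SE), or 3.14-fold lower, with an adjusted p of 0.764 in edgeR. *Dpysl2*, a collapsin response mediator gene, had 15.2, 13.0 and 19.2 CPM at 24 m, against 18.4, 38.6 and 21.2 CPM at 3 m, with overlap, and a log2 fold change of -0.72 with all libraries and -0.32 without replicate 2 at 3 m.

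Markers of other lung cells were present in the same libraries. The sums of leukocyte, mesothelial and neuroendocrine markers did not overlap between the ages, and those of the other lists did. The 6 neuroendocrine markers summed to 3.18 to 4.36 CPM at 24 m and 0 to 2.47 CPM at 3 m. The 3 basal markers with values summed to 1.31 to 4.12 CPM at 24 m and 0 to 2.68 CPM at 3 m. For the 10 AT1 markers the sum was 2511 to 2779 CPM at 24 m and 2460 to 2820 CPM at 3 m. The 8 airway secretory markers summed to 847.5 to 1557 CPM at 24 m and 547.2 to 1050 CPM at 3 m, the 14 leukocyte markers to 12.7 to 87.9 CPM at 24 m and 1.45 to 7.56 CPM at 3 m, and the 11 endothelial markers to 10.05 to 28.9 CPM at 24 m and 5.48 to 13.7 CPM at 3 m. The 5 mesothelial markers with values summed to 4.40 to 24.0 CPM at 24 m and were at 0 in every 3 m library, as were 5 of the 11 endothelial markers, among them *Cdh5*, and 6 of the 14 leukocyte markers. The 9 ciliated markers summed to 68.5 to 157.8 CPM at 24 m and 49.2 to 103.7 CPM at 3 m, and the 14 stromal markers to 157.0 to 233.5 CPM at 24 m and 123.2 to 242.3 CPM at 3 m. DESeq2 called 5 of 8 airway secretory, 5 of 14 leukocyte, 3 of 11 endothelial and 1 of 5 mesothelial markers higher at 24 m, and 0 ciliated and 0 stromal markers, while edgeR called 0 of any list. A few genes made up most of some sums. *Msln*, at 3.78 to 23.8 CPM at 24 m and 0 in every 3 m library, carried the mesothelial sum. *Npnt*, at 117.3 to 221.9 CPM at 24 m and 118.5 to 227.9 CPM at 3 m, carried the stromal sum, and *Scgb1a1* and *Sec14l3*, with overlapping ages, the airway sum. In the same airway list, *Scgb3a1* was at 41.7 to 119.0 CPM at 24 m and 0 to 1.55 CPM at 3 m, and *Muc5b* at 21.1 to 74.3 CPM at 24 m and 0.222 to 3.74 CPM at 3 m. The sums of the airway secretory, leukocyte, endothelial, mesothelial, ciliated and neuroendocrine markers were highest in replicate 2 at 24 m. Of the 63 guidance genes, 17 were also highest in that library, among them *Ephb2*, *Sema6d* and *Unc5b*. At 3 m, 13 were highest in replicate 2 and 12 in replicate 3. The share of all genes highest in each library was not counted. *Ntn1* was highest in replicate 3 at 24 m. Of the 24 m libraries, that one had the lowest of these marker sums and the highest stromal sum, 233.5 CPM. *Npnt* alone made up 221.9 CPM of this stromal sum. The part of these cells in the levels of the guidance genes was not tested.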

How the data were processed

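The authors deposited a table of whole-number counts and FPKM values for 24224 genes in each of the 6 libraries, made from paired-end reads of mRNA libraries. HISAT2, featureCounts, DESeq2 and the build GRCm39 are named in the submitters' processing notes, and versions, annotation release and strand setting are not given in the sources used here, so reads of a gene and its antisense partner cannot be told apart. The deposited counts carry no normalization. The deposited FPKM values gave 1 whole-number length per gene in all 24224 genes, within 0.1 base. They were used to compare levels between genes, to sum families in each library and as an alternative in counting ages that did not overlap.

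The tools were DESeq2 1.42.0, limma 3.58.1 and edgeR 4.0.16 in R 4.3.3. Genes passing filterByExpr (14899) were compared between 24 m and 3 m on the whole table with TMM scaling in the quasi-likelihood test of edgeR, without a block. Calls asked for p under 0.05 after Benjamini-Hochberg adjustment over all genes, and more than 1 log2 unit of difference. SE is the log2 fold change divided by the square root of F. The depth was 28827930 to 32394985 counts per library, and 3 counts over an age amount to 0.0322 CPM in 24 m libraries and 0.0338 CPM in 3 m libraries, limits that cover counting error only.

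The genes named are those called by edgeR or DESeq2, those with an unadjusted p under 0.05 and ages that did not overlap, the 3 highest in FPKM of each family, every Slit and Robo gene, any with no count at 1 age and at least 1 CPM at the other (0 found), and the 6 genes of the partner list with the smallest p. Genes named beyond this rule were chosen after their values were seen. The members and the lists were chosen with earlier results of these data known. The alternatives were DESeq2, limma-voom, other scalings, filters and thresholds, the replicate number as a block and each library left out in turn. DESeq2 without replicate 2 at 3 m was added after the data had been seen. The tests were tried on simulated data. Exon overlaps came from GENCODE vM21 on GRCm38, matched by gene identifier, and promoters from RefSeq on GRCm38.p6, used for names and letters only.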

Additional observations from a re-analysis of the deposited data

How the results depend on the processing

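Of 29 named genes, 24 kept the direction of their difference under every alternative run. The adjusted p of *Robo1* ran from 2.11e-06 to 1.0 and that of *Ntn1* from 2.65e-14 to 1.0 over the alternatives, with log2 fold changes of -2.94 to -2.56 and 1.52 to 2.43. The 2 guidance genes called, against 0 in edgeR, were called by DESeq2, with no filter on low counts and by DESeq2 without replicate 2 at 3 m, and leaving out 1 library at a time gave 0 to 2, with 2 only without replicate 2 at 3 m. Over all genes, edgeR called 0, DESeq2 314, edgeR with no filter 207, edgeR at an adjusted p under 0.1 called 1, and DESeq2 without replicate 2 at 3 m 455. Leaving out 1 library gave 0 to 85 calls, 85 without replicate 2 at 3 m and 1 without replicate 3 at 24 m. Guidance genes at an unadjusted p under 0.05 numbered 6 in edgeR, 10 in DESeq2, 11 with no filter, 13 in DESeq2 without replicate 2 at 3 m and 3 to 12 with 1 library left out, 3 without replicate 1 at 24 m and 12 without replicate 2 at 3 m. Ages that did not overlap were found for 13 with all libraries and for 15 to 23 with 1 left out, 23 without replicate 3 at 3 m, and for 10 with library totals alone, 10 in deposited FPKM, 12 with RLE scaling and 16 with no filter. With 1 library fewer, ages overlap less often by construction, and other causes were not tested. The 10 and 13 in DESeq2 and the 11 and 16 with no filter take in *Ephb2* and *Sema6d*, which had no count at 3 m.

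The genes that changed direction were *Ephb4*, *Nrp1*, *Sema3b*, *Slit3* and *Slit2*, given here as log2 fold changes. *Ephb4* was at 0.026 in limma-voom and 0.027 with the replicate block, and -0.35 to 0.21 with 1 library left out. *Nrp1* was at 0.041 in limma-voom, 0.075 with library totals alone, 0.040 with the replicate block and 0.11 in DESeq2 without replicate 2 at 3 m, and -0.21 to 0.13 with 1 left out. *Sema3b* was at 0.19 in limma-voom, 0.055 with library totals alone and 0.18 with the replicate block, and -0.38 to 0.32 with 1 left out. *Slit3* was at -0.46 in DESeq2 without replicate 2 at 3 m, 1.86 in limma-voom, 0.95 with the replicate block and -0.44 to 1.02 with 1 left out, and *Slit2* at -0.13 to 0.42 with 1 left out. The median log2 fold change of all genes was 0.05 in edgeR, 0.13 with library totals alone, 0.20 in DESeq2 and 0.14 in limma-voom. Same-numbered libraries of the ages did not deviate together (correlations of 0.0103, -0.0417 and -0.0766), and with the replicate number as a block 0 guidance genes were called and 5 had an unadjusted p under 0.05. With 3 libraries per age and 1 set apart, small differences of low genes such as *Robo3* were not detectable.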

Other observations

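Guidance genes that were apart in replicate 2 at 3 m went in both directions within families. *Epha7* was at 156.2 CPM in that library and 54.8 to 71.5 CPM in the other 5, while *Epha2* was at 19.6 CPM in it and 117.0 to 220.3 CPM in the others. *Efna5* was at 3.53 CPM against 1.01 to 1.49 CPM in the others, while *Efna3* was at 0.249 CPM against 4.39 to 7.06 CPM. *Sema3c* was at 35.0 CPM against 7.23 to 9.77 CPM, while *Sema3b* was at 29.4 CPM against 70.1 to 104.5 CPM. Of the 63 guidance genes, 13 had their highest value in replicate 2 at 3 m and 17 in replicate 2 at 24 m. The shares over all genes were not counted. The guidance genes named here were picked after their values were seen, and no test was made.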
